A study of Mus musculus with 4 samples.

Results

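The genes described here are 40 genes of DNA replication and S phase, taken by symbol from a fixed list out of the 31053 genes measured. S phase is the stretch of the cell cycle in which the genome is copied. All 40 symbols were found, and the data were used to ask which cell classes of the embryonic aorta region carry replication gene RNA and whether loss of miR-223 changed it. RNA of single cells was counted after 10x Genomics 3' capture of sorted cells from the mouse aorta-gonad-mesonephros region at embryonic day 10.5. The cells carried the endothelial surface protein CD31 and lacked the blood cell protein CD45. Of the 4 libraries, 2 came from wild-type embryos (WT1 and WT2) and 2 from miR-223-/- embryos (KO1 and KO2), age matched. The labels give neither the extent of the deletion nor whether the libraries of a genotype came from separate embryos or litters, so every p-value given covers only variation from library to library, which may be technical.

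Before S phase, origins of replication are licensed when the loading factors Cdc6 and Cdt1 place the MCM helicase ring on DNA. At S phase entry, cyclin E activity and recruitment of Cdc45 and the GINS complex switch the helicase on, and polymerases copy DNA behind the sliding clamp Pcna. Transcription of many of these genes rises together before and during S phase under E2F factors. In the embryonic aorta, hemogenic endothelial cells give rise to blood stem and progenitor cells, and arterial cells are known to cycle less than growing venous and sprouting endothelium.

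After filtering, 2297, 6874, 4126 and 5875 cells remained in WT1, WT2, KO1 and KO2, the order in which values of 4 libraries are given throughout. Median depth was 30214, 18162, 20137 and 18713 UMIs per cell, where a UMI is a tag that marks 1 captured RNA molecule. Cells were grouped into 27 clusters without the 40 members, other listed cell cycle genes, histone genes and genes that followed the cycle, so the members did not define the clusters. Clusters were named from marker genes. The hemogenic endothelial-like cluster (12, 77, 132 and 78 cells) is led by Spi1, Runx1, Ikzf2 and Adgrg1. Among its 10 top genes, 8 are hemogenic markers and 4 are blood progenitor markers. Of the 4, Spi1 and Myb are on both lists, while Coro1a and Lyz2 are on the blood list alone. The cluster is thus not separated from early blood progenitors. Despite the sort, the mesenchymal-like, neural-like, erythroid-like and germ cell-like clusters were low in pan-endothelial marker RNA. Their mean log2 fold against the other clusters ran from -3.83 in erythroid-like cluster 26 to -2.27 in mesenchymal-like cluster 23. The libraries shared 8 to 28 cell barcodes per pair. Xist was seen in 0.0727% of KO1 cells against 40.7% to 49.7% in the other libraries, while the Y-linked Ddx3y was seen in 29.2% to 43.3% of cells in every library, so KO1 stands apart in its mix of male and female cells. The miR-223 host transcript F630028O10Rik had 10, 60, 260 and 654 UMIs; the 3' tag may lie outside the deleted stretch, so this checks no label.

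The promoters of these genes share sequence that the choice of members did not use. RefSeq promoters (build GRCm38.p6, 250 bases before to 50 after the start of the gene) were matched for 30 of the 40 members. The letters TTTCCCGC, TTTGGCGC, TTTCGCGC or TTTGCCGC, forms of the motif read by E2F factors, occurred on either strand in 12 of these 30 (40%), against 2.605% of 27025 gene promoters of the same length. CCAAT, the letters of the CCAAT box, occurred in 66.67% of the members' promoters and 41.06% of all. TTTGAA, the cell cycle homology region letters of many mitosis genes, occurred in 20% and 20.23%. A match is a run of letters and not a shown binding site. Stretches around the E2F letters are printed for members of different roles, 5′ to 3′ on the gene's strand, with the matched letters in capitals. They belong to the loading factor Cdc6, the ring subunits Mcm5 and Mcm6, the primase-polymerase subunit Pola1, the Cdt1 destruction adaptor Dtl, the histone supply factor Casp8ap2 and the methylation maintenance factor Uhrf1.
Cdc6, chr11:98907993-98908040, plus strand: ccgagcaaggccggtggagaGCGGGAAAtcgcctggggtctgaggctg
Mcm5, chr8:75109336-75109387, plus strand: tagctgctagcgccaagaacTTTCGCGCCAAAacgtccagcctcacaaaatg
Mcm6, chr1:128359725-128359835, minus strand: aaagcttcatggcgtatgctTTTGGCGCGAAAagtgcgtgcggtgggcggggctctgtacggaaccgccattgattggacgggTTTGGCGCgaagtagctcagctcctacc
Pola1, chrX:93632266-93632313, minus strand: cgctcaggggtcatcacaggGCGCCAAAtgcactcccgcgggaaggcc
Dtl, chr1:191575545-191575572, minus strand: atcagaaagcgtgacgtcagTTTGGCGC
Casp8ap2, chr4:32615274-32615321, plus strand: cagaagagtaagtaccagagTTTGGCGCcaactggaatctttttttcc
Uhrf1, chr17:56304108-56304155, plus strand: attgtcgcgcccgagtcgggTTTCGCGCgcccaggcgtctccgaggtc
In Mcm5 and in the first match of Mcm6, a pair of overlapping matches on opposite strands form 1 run of capitals.

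The summed level of the 40 members separated the classes more than it separated the genotypes. In primordial germ cell-like cells the members took 54.6, 54.2, 52.6 and 54.3 of every 10000 UMIs. In mesenchymal-like cells they took 47.0, 46.3, 48.0 and 45.9. Germ cell-like cells were thus higher than mesenchymal-like cells in every library, without overlap, and neural-like cluster 16 (led by Fabp7, Hes5 and Sox2) was as high, at 54.2, 54.1, 59.1 and 51.8. Hemogenic endothelial-like cells had 33.4, 34.5, 42.6 and 36.8, close to or above the non-arterial endothelial-like cells at 33.3, 32.4, 35.3 and 32.4. Arterial-like cells were lower in every library, with 20.8, 16.7, 23.2 and 17.1. Among them, cluster 9 (led by Gja5, Sat1, Gja4 and Vegfc) had 12.6, 10.5, 12 and 10.6, the lowest of the classes plotted by library. Venous-like cells, at 33.5 to 36.3, and sprouting-like cells, at 32.7 to 35.2, overlapped, while liver sinusoidal or lymphatic-like cells lay just below both, at 30.8 to 32.6. The summed level also depends on the other RNA in a cell, since UMI counts are relative.

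**Figure D1:**
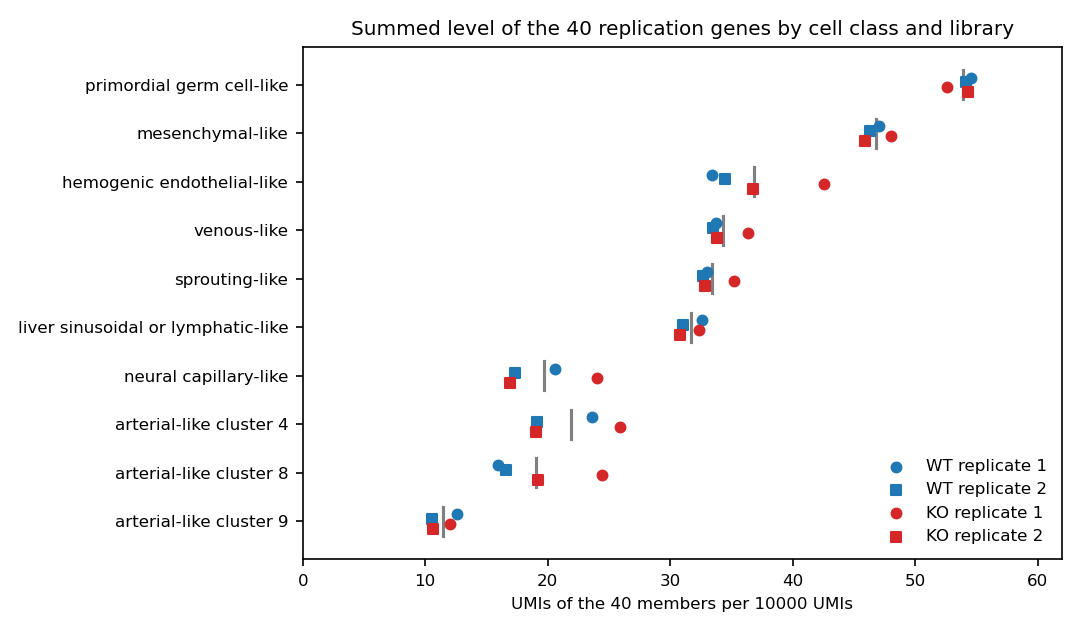
UMIs of the 40 replication genes per 10000 UMIs (x axis) in 10 cell classes (y axis); points are the 4 libraries and grey bars their mean. Germ cell-like cells sit at 52.6 to 54.6 and arterial-like cluster 9 at 10.5 to 12.6, and the WT and KO points lie close within most classes.

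To count cells rather than RNA, each cell was thinned to 5000 UMIs and called in the replication range when 10 or more of them came from the members. This is a range of a score and not a cell type: 17.6% to 18.8% of endothelial-like cells lay within 2 UMIs of the limit. In endothelial-like cells, 67.6%, 62.8%, 75.4% and 64.2% were in the range (67.5% ± 5.66, SD, n = 4). In arterial-like cells the shares were 30.7%, 23.6%, 39.96% and 26.9% (exact 95% binomial intervals 25.6% to 36.2%, 21.2% to 26.2%, 35.9% to 44.2% and 24.1% to 29.8%, for counting error only). In every library the arterial-like share was below the endothelial-like share. Hemogenic endothelial-like cells reached 83.3%, 73.3%, 87.9% and 71.4%, the first from 12 cells with an interval of 51.6% to 97.9%. Mesenchymal-like cells reached 92.2% ± 1.57 and germ cell-like cells 99.8% ± 0.352 (SD, n = 4).

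The members' lowest share was in arterial-like cluster 9, at 12.1%, 9.33%, 15.7% and 10.7% of cells. Neuron-like cluster 17, led by the neuronal genes Tubb3, Nefm and Elavl4, had 24.1% ± 7.76. Means of 25.6% in arterial-like cluster 8 and 30.3% in all arterial-like cells lay near it. Whether cluster 17 is free of cycling cells was not tested, so it sets no background. No share, in cluster 9 or in any other class, is read as a share of replicating cells. Median depth before thinning was 13032 to 20875 UMIs in cluster 9 and 11435 to 16581 in cluster 17. Without thinning, 88.7% to 95.9% of endothelial-like cells passed the same limit, at median depths of 18448 to 30795. Thinning left out 24, 225, 30 and 142 endothelial-like cells with fewer than 5000 UMIs.

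A second score, 20 or more UMIs of 55 mitosis genes among the 5000, split the cells further. In endothelial-like cells, 54.0% were in both ranges, 13.5% in the replication range alone, 12% in the mitosis range alone and 20.5% low in both (means of 4 libraries). In arterial-like cells 56.4% were low in both, in cluster 9 81.1%, and in germ cell-like cells 99.5% were in both. Neuron-like cluster 17 had 73.3% low in both and 16.6% in both ranges, while cluster 9 had 5.30% in both ranges. Hemogenic endothelial-like cells had 57.3% in both and 21.6% in the replication range alone. Only 4.38% of them were in the mitosis range alone.

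**Figure D2:**
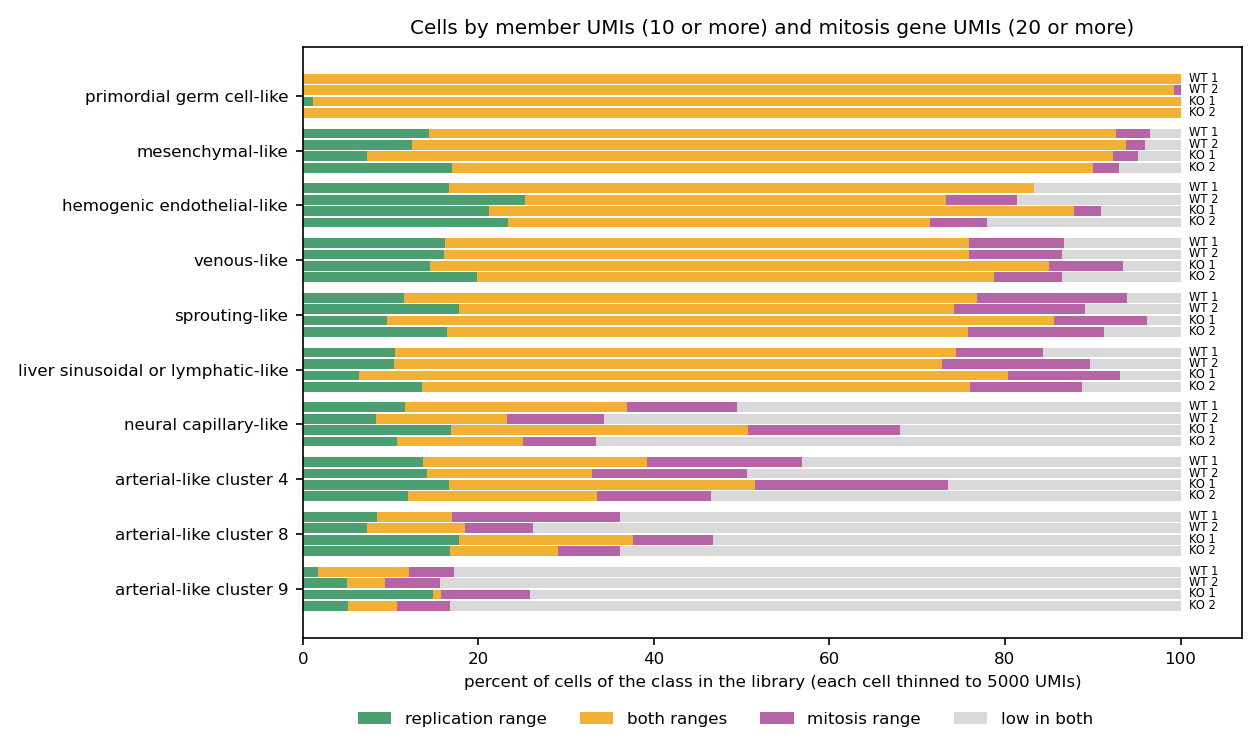
Percent of cells (x axis) of each class and library (y axis) in the replication range alone (green), both ranges (orange), the mitosis range alone (purple) or low in both (grey), after thinning to 5000 UMIs. Grey fills most of the arterial-like cluster 9 bars (mean 81.1%), while germ cell-like bars are almost wholly orange.

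The members did not all follow the same course across these ranges. In endothelial-like cells, binned by the other members so that no gene set its own bin, 40 of 40 were higher in the replication range than in cells low in both, in every library. Of these, 14 were highest in the replication range alone and 26 in the cells that were in both ranges. Ccne2, the cyclin E2 gene of S phase entry, averaged 2.27 CPM (the usual CPM scale, UMI counts of a gene over all UMIs of the same cells of a library) in low cells, 26.7 in the replication range, 26.5 in both and 2.69 in the mitosis range. Cdc6 followed the same order with 2.16, 41.2, 34.1 and 5.16 CPM, and Ung, which removes uracil from DNA, with 9.60, 72.9, 46.9 and 10.0 CPM. In the mitosis range Ccne2 and Ung overlapped the low cells over the libraries, and Cdc6, at 3.56 to 7.19 CPM, stayed above their 1.79 to 2.55.

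The nucleotide supply genes took another course. Rrm2, the regulated subunit of ribonucleotide reductase, averaged 14.5, 121, 221 and 84.2 CPM in the same 4 ranges. Tyms, thymidylate synthase, averaged 63.2, 147, 240 and 163 CPM. Both were highest in cells with replication and mitosis genes together, and both stayed above the low cells in the mitosis range. The repressor gene E2f8 averaged 0.684, 6.63, 13.3 and 4.40 CPM. For 38 of the 40 members the mitosis range lay above the low range. These levels are a description, because members rise and fall together by the binning.

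**Figure D3:**
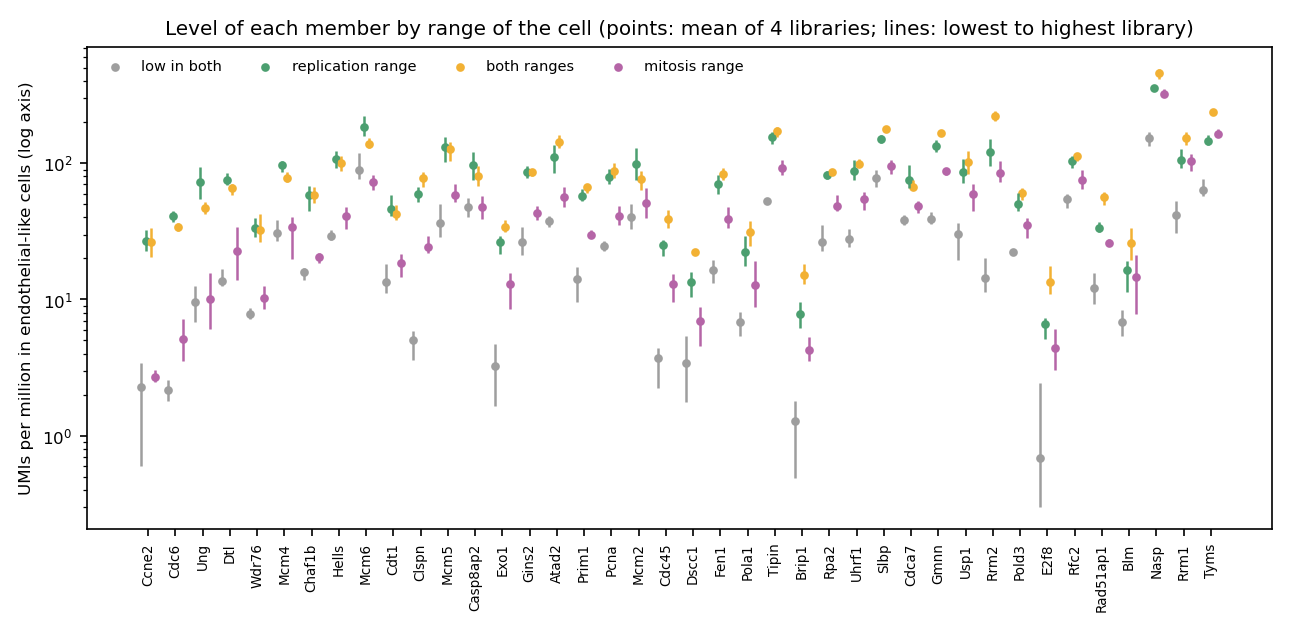
Level of each member (x axis) in endothelial-like cells in CPM on a log axis, by range of the cell; points are means of 4 libraries and lines run from the lowest to the highest library, with lows drawn no lower than 0.3. Genes are ordered by their level in the mitosis range relative to the replication range, from the lowest (Ccne2, Cdc6) to the highest (Rrm1, Tyms).

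Arterial-like cells were compared with the other endothelial-like cells of the same library by edgeR's quasi-likelihood test on summed counts, with Benjamini-Hochberg adjustment over all genes and a threshold of 0.05. All 40 members were lower in arterial-like cells and none higher, where 33.4% of the 13216 genes tested were lower and 32.7% higher. The members' median log2 change was -0.93, against 0.00 over all genes. All 7 licensing genes were lower, by log2 changes of -1.47 to -0.43. Cdc6 had 28.5, 28.0, 34.7 and 26.7 CPM in the other endothelial-like cells and 12.6, 8.73, 19.8 and 7.79 CPM in arterial-like cells (log2 change -1.47, SE 0.193, adjusted p = 0.00241). The sets of libraries did not overlap for Cdc6. The helicase ring subunit Mcm5 went from 125, 90.4, 132 and 99.8 CPM to 69.0, 37.5, 70.9 and 45.8 (log2 change -1.14, SE 0.0766, adjusted p = 3.91e-06), and Cdt1 changed by -1.07 (SE 0.0831). Mcm6 was the licensing gene that differed least, at 147, 124, 149 and 132 CPM against 118, 92.5, 133 and 99.6.

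Genes that act at the fork and supply nucleotides were lower in the same cells. The sliding clamp gene Pcna had 83.2, 70.7, 73.3 and 72.8 CPM in the other endothelial-like cells and 55.0, 37.9, 44.9 and 40.01 in arterial-like cells (log2 change -0.88, SE 0.0562, edgeR adjusted p = 2.84e-08). Rrm2 had 186, 159, 214 and 151 against 90.8, 53.7, 101 and 56.2 CPM (log2 change -1.38, SE 0.124, edgeR adjusted p = 0.000754). Both genes were lower in arterial-like cells without overlap. The 4 clamp, loader and flap removal genes ranged from -1.24 to -0.61, the 5 fork protection and checkpoint genes from -1.24 to -0.91 and the 3 polymerase and primase genes from -1.10 to -0.79. Of the 5 repair genes (-1.51 to -0.74), Ung had 47.9, 41.1, 49.7 and 44.1 against 23.7, 12, 23 and 14.1 CPM. The 8 chromatin and histone supply genes ranged from -1.23, in the histone chaperone subunit Chaf1b, to -0.49. Ccne2 changed by -1.21 (SE 0.0819).

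The 3 arterial-like clusters carried this to different degrees. Against the non-arterial endothelial-like cells, all 40 members were lower in cluster 4 (28.4% of genes lower), in cluster 8 (32.9%) and in cluster 9 (32%), with medians of -0.71, -1.01 and -1.79. In cluster 9, Cdc6 was at 2.23, 4.93, 4.0 and 0.566 CPM, the lowest of these resting on very few UMIs (log2 change -3.37, SE 0.186, edgeR adjusted p = 1.37e-35). Ung changed by -3.14 there, Rrm2 by -2.87, Mcm5 by -2.02 and Pcna by -1.55. Tested directly, 34 of 40 members were lower in cluster 9 than in cluster 8 and none higher, where 17.5% of genes were lower. The gap was widest for Ung (-1.67), E2f8 (-1.57) and the checkpoint adaptor Clspn (-1.39).

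Other cell cycle lists were set beside the members in arterial-like cells. Of 44 other replication genes, 43 were lower and none higher, and all 55 mitosis genes were lower. All 8 genes of the G1 cyclin and kinase list were lower, and of 13 tested brakes of the cycle 6 were higher and 2 lower, where 32.7% of all genes were higher and 33.4% lower. Among the brakes, Cdkn1c, an inhibitor of cyclin-dependent kinases, had 387, 352, 347 and 396 CPM in non-arterial endothelial-like cells and 2788, 2431, 3157 and 2732 in cluster 9 (log2 change 2.80, SE 0.0940, edgeR adjusted p = 5.87e-05). Cdkn1c averaged 1147 CPM in cluster 4 and 869 in cluster 8. It did not stand for its list: in cluster 9 against cluster 8, 3 of 12 tested brakes were higher and 5 lower, with a median of -0.39, where 19.5% of genes were higher and 17.5% lower. Median depth was lower in arterial-like than in endothelial-like cells (13351 to 23498 against 18448 to 30795 UMIs), and the part of this gap was not tested. With the sums of each class thinned to the depth of its smallest library, the same 40 members were lower. That thinning evens out the libraries of a class and not the classes.

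**Figure D4:**
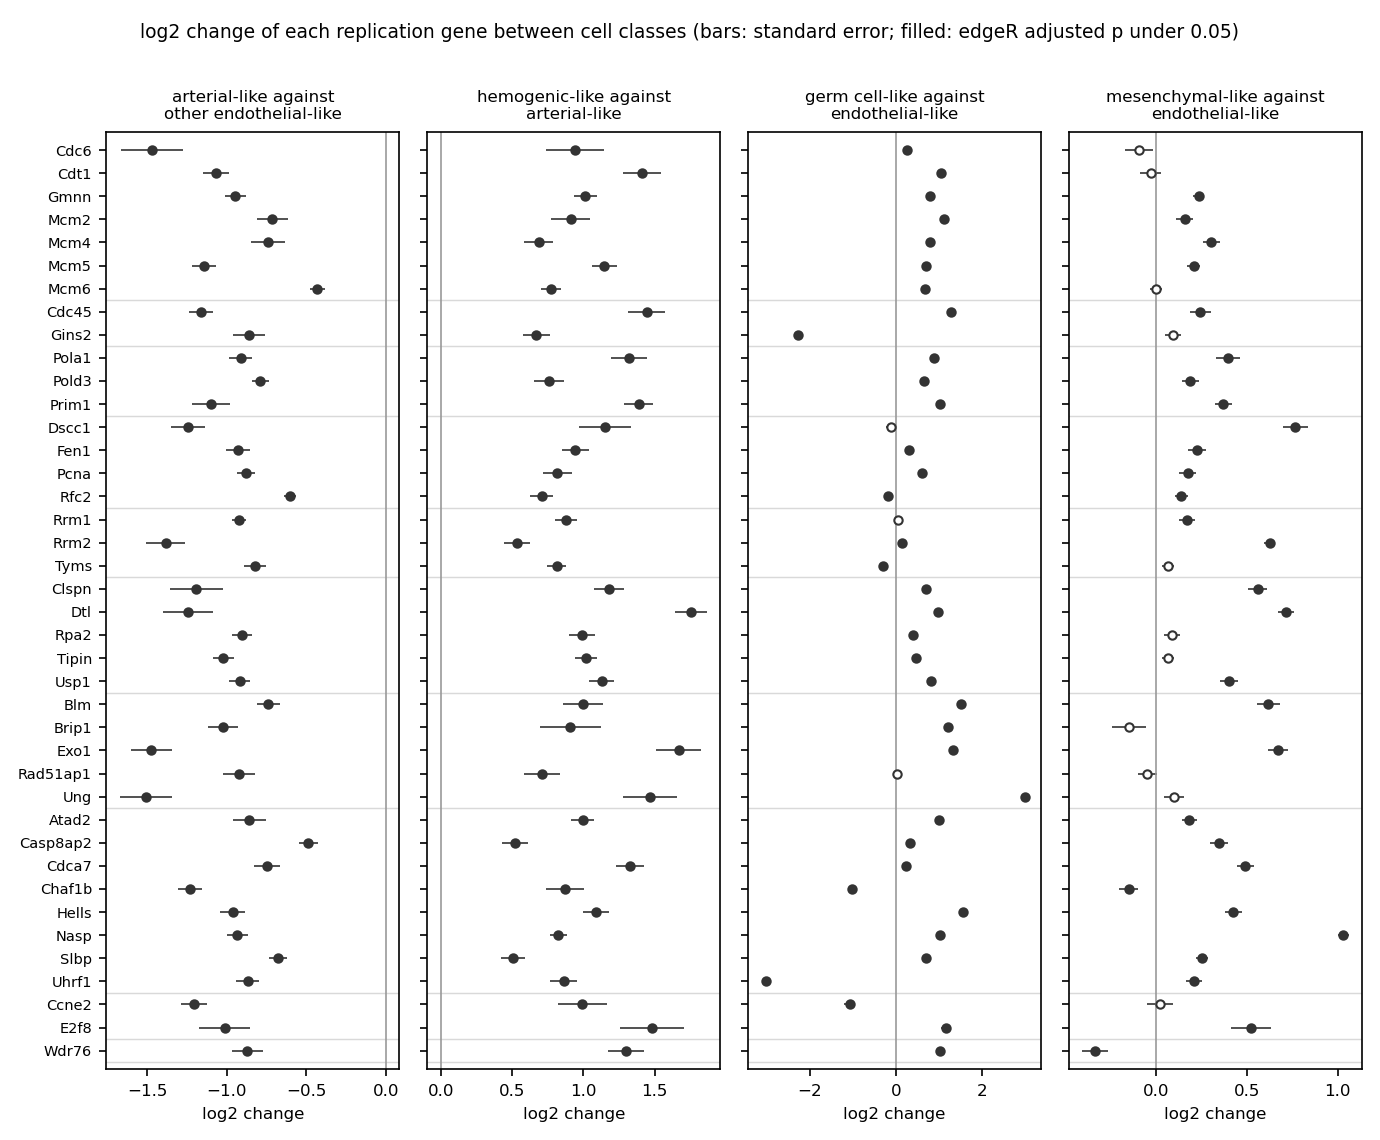
log2 change of each of the 40 members (y axis, grouped by role) in 4 comparisons between classes, with standard errors; filled points have an edgeR adjusted p under 0.05, and the panels have different x axes. All 40 points lie below 0 in arterial-like cells and above 0 in hemogenic-like against arterial-like cells, while Ung, Uhrf1 and Gins2 stand far from the rest in germ cell-like cells.

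Differences were small in sprouting-like, liver sinusoidal or lymphatic-like and venous-like cells. Each was compared with all other endothelial-like cells, which include the arterial-like and neural capillary-like cells with low summed levels. How many of the higher calls rest on those low cells was not tested. In summed level, the sprouting-like and venous-like ranges overlapped that of non-arterial endothelial-like cells. The range of liver sinusoidal or lymphatic-like cells reached below it. In sprouting-like cells, led by Kcne3 and Esm1, 32 of 40 members were higher than in the other endothelial-like cells and none lower (23.1% and 17.6% of genes), with a median log2 change of 0.15. The polymerase delta subunit gene Pold3 differed most (0.38, SE 0.0331, edgeR adjusted p = 2.15e-11), and Rrm2 was higher by 0.25. Without KO2, 21 members were higher. Of 55 mitosis genes, 53 were higher in the same cells. In liver sinusoidal or lymphatic-like cells 19 members were higher and 3 lower (27.2% and 27.6% of genes), among them the flap nuclease gene Fen1 (0.38), Mcm5 (0.35) and the histone mRNA binding gene Slbp (0.35) on the higher side and the clamp loader gene Rfc2 (-0.15, a call lost without KO2) on the lower. In venous-like cells 26 members were higher and none lower (20.6% and 22.5% of genes), with a median of 0.13. With cell cycle genes kept in the clustering, 16 members were higher and 13 lower in the venous-like cells so defined.

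Neural capillary-like cells, led by Spock2 and Foxq1, had a summed member level of 20.6, 17.3, 24.1 and 16.9 per 10000. All 40 members were lower there than in the other endothelial-like cells (27.3% of genes lower), with a median of -0.85. This comparison depended on the clustering: 5 members were higher and 8 lower when called doublets were kept, and 4 were higher and 14 lower when cell cycle genes were kept. In those clusterings the name also took in a cluster led by Car2 and Cdh2, of 2601 and 1774 cells. In the report's clustering the Car2-led cluster 3 is other endothelial-like, with 36.1, 34.9, 38.0 and 33.7 per 10000. The same cells were thus not compared across clusterings. No single gene is named for that class.

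Compared with all endothelial-like cells, more members were higher than lower in hemogenic endothelial-like cells. The comparison set includes the arterial-like and neural capillary-like cells with low summed levels. How many of the higher calls rest on those low cells was not tested. In summed level, the hemogenic excess over non-arterial endothelial-like cells was smallest in WT1 and largest in KO1. Of the 40 members, 18 were higher and 2 lower (22.8% and 28% of 13184 genes), with a median log2 change of 0.12 against -0.03 over all genes. Cdca7, a chromatin remodelling partner of Hells, had 92.3, 116, 110 and 95.1 CPM against 57.6, 59.2, 66.6 and 56.6 (log2 change 0.66, SE 0.0782, edgeR adjusted p = 4.84e-16). Dtl, the adaptor that marks Cdt1 for destruction in S phase, had 87.9, 80.7, 105 and 103 CPM against 55.9, 48.6, 62.5 and 56.9 (log2 change 0.62, SE 0.0805, edgeR adjusted p = 8.87e-14). For both genes every hemogenic value lay above every endothelial one. Mcm6 was higher by 0.39, with 187, 177, 209 and 193 against 143, 119, 146 and 128 CPM.

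The 2 members that were lower in hemogenic endothelial-like cells were Rrm2 and Cdc6. Rrm2 had 90.1, 77.8, 158 and 97.3 CPM against 173, 144, 199 and 137 in endothelial-like cells (log2 change -0.71, SE 0.0696, edgeR adjusted p = 2.72e-23). It was lower within each library, although the KO1 hemogenic value lay above the lowest endothelial values. Cdc6 had 11, 22.1, 28.3 and 24.7 against 26.2, 25.3, 32.7 and 24.0 CPM (log2 change -0.34, SE 0.126, edgeR adjusted p = 0.0174), a call lost without WT1 or KO1 (adjusted p = 0.056 and 0.104) and by DESeq2 (adjusted p = 0.085). With the sums of each class thinned to the depth of its smallest library, 8 members were higher and 3 lower. Of 55 mitosis genes, 10 were higher and 21 lower in these cells, and of 44 other replication genes 20 were higher and 5 lower.

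Against arterial-like cells, all 40 members were higher in hemogenic endothelial-like cells (30.2% of 11218 genes), with a median log2 change of 0.99 against 0.00 over all genes. The largest differences were in Dtl (1.75, SE 0.112), the nuclease gene Exo1 (1.67, SE 0.159) and the repressor gene E2f8 (1.48, SE 0.223). Mcm5 was higher by 1.15, Cdt1 by 1.41 and Pcna by 0.82, and Rrm2 by 0.54 (SE 0.0915, edgeR adjusted p = 6.68e-06). The hemogenic class also held 7.32 to 11.1 UMIs per 10000 of the 11 blood progenitor or myeloid markers, against 0.592 to 0.737 in arterial-like cells. Their part in the difference was not tested.

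In primordial germ cell-like cells, which carry Dppa5a, Dppa3 and Pou5f1, 31 members were higher and 6 lower than in endothelial-like cells, where 38.3% of 14054 genes were higher and 44% lower. The median log2 change of the members was 0.70, against -0.10 over all genes. All 7 licensing genes (0.27 to 1.11), all 5 fork protection and checkpoint genes and all 3 polymerase and primase genes were higher. Mcm2, a subunit of the helicase ring, had 203, 133, 179 and 154 CPM against 84.3, 56.2, 85.9 and 62.8 (log2 change 1.11, SE 0.0616). Ung stood apart, with 367, 327, 385 and 356 CPM against 44.5, 37.1, 46.1 and 39.7 (log2 change 3.0, SE 0.0602, edgeR adjusted p = 2.19e-74). Hells, a chromatin remodeller needed for DNA methylation, had 230, 271, 224 and 296 against 69.0, 89.1, 76.7 and 85.7 CPM.

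A few members went the other way in germ cell-like cells. Uhrf1, which brings the maintenance methyltransferase to newly copied DNA, had 14.7, 8.15, 12.5 and 9.90 CPM against 83, 75, 96.8 and 73.9 (log2 change -3.02, SE 0.0973, edgeR adjusted p = 2.41e-54). The GINS subunit gene Gins2 had 13.1, 13.2, 21.6 and 16.5 CPM against 72.2, 70.04, 77.9 and 69.8 (log2 change -2.28, SE 0.0916, edgeR adjusted p = 2.98e-44). Ccne2 (-1.08), Chaf1b (-1.03), Tyms (-0.29) and Rfc2 (-0.17) were lower as well. Thus the helicase activation pair split: Cdc45 was higher by 1.28 while Gins2 was lower. Of the brakes, 8 of 14 were lower and 2 higher, and Cdkn1c averaged 27.3 CPM in germ cell-like cells against 515 in endothelial-like cells.

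Germ cell-like and mesenchymal-like cells both had high summed levels, and all 3 polymerase and primase genes were higher in both than in endothelial-like cells. Compared with each other, 26 members were higher and 9 lower in germ cell-like cells (39% and 40.4% of 11757 genes), with Ung at 2.92, Hells at 1.16 and Mcm2 at 0.98 on the higher side. Uhrf1 at -3.19, Gins2 at -2.34 and Rrm2 at -0.46 were on the lower side. Against endothelial-like cells, 27 members were higher and 2 lower in mesenchymal-like cells (35.7% and 38% of 14051 genes), with a median of 0.21. Nasp, a histone chaperone, had 798, 955, 879 and 960 CPM against 347, 378, 394 and 397 (log2 change 1.03, SE 0.0295, edgeR adjusted p = 1.24e-13). Rrm2 was higher too, with 317, 264, 332 and 249 CPM (log2 change 0.62, SE 0.0306). Nasp has a pseudogene, as have Pcna and Tyms, so their counts are less certain.

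No member passed the threshold between KO and WT in any of the 13 classes and clusters tested by edgeR's quasi-likelihood test, and few genes did at all. The share of genes called was 0% in all kept cells, 0.143% in endothelial-like, 0.0333% in arterial-like, 0.0215% in hemogenic endothelial-like, 0.125% in germ cell-like and 0.00827% in mesenchymal-like cells. It was 0.0419% in venous-like, 0.068% in sprouting-like, 0.0657% in liver sinusoidal or lymphatic-like and 0.0277% in neural capillary-like cells. DESeq2 also called no member in these classes. At an unadjusted p under 0.05 edgeR gave 20 members in arterial-like cluster 8 and 7 in hemogenic endothelial-like cells, described further on, 1 higher in germ cell-like cells (1.53% of genes), 1 lower in arterial-like cluster 9 (0.961% of genes) and 0 in the other 9. On simulated counts the same test recovered 69.2% of genes changed by a fold of 2 and 15.2% of those changed by 1.5 in endothelial-like cells, and 43.1% and 1.54% in hemogenic endothelial-like cells, so changes of 1.5 fold were mostly not detectable there.

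In endothelial-like cells the members' median log2 change was 0.05, with 32 point estimates above 0 and 8 below. The estimates were 0.12 for Mcm5 (SE 0.196), 0.15 for Cdc6, 0.12 for Cdt1, 0.10 for Rrm2, -0.06 for Pcna and -0.12 for Ccne2. Leaving out 1 library turned the sign of each of these 6. In 2 members both KO libraries lay above both WT libraries, where 7.72% of genes did so. In germ cell-like cells the median was 0.01, and the largest estimate by size was 0.55 for Gins2. In mesenchymal-like cells the median was 0.02. The erythroid markers took 8.29 per 10000 UMIs in germ cell-like cells of KO1 against 0.235 to 1.83 in the other libraries; their part was not tested.

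In hemogenic endothelial-like cells 35 members had point estimates above 0 and 5 below, with a median of 0.27. Of these, 7 had an unadjusted p under 0.05, all higher in KO, where 1.48% of genes did. DESeq2 gave 3. Ung had 24.2, 37.2, 66.2 and 51.7 CPM, both KO values above both WT values (log2 change 0.82, SE 0.255, edgeR adjusted p = 0.9998). Uhrf1 had 72.5, 74.9, 122 and 102 CPM (0.60, SE 0.193) and Rrm2 the values given above (0.64, SE 0.228). In 22 members both KO libraries lay above both WT libraries, where 15.8% of genes did. Without KO1 no member had an unadjusted p under 0.05. WT1 holds 12 of these cells, with 2.44 per 10000 UMIs of mesenchymal markers against 0.134 to 0.256 in the other libraries, and the part of these markers was not tested.

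Arterial-like cluster 8, led by Htra1, Tmem100 and Gja5, had 39 of 40 point estimates above 0 in KO, with a median log2 change of 0.54 and no adjusted p under 0.05 (0.0196% of genes called). Here 20 members had an unadjusted p under 0.05, where 1.64% of genes did so in the higher direction, and DESeq2 gave 17. Cdt1 had 11.6, 16.5, 36.0 and 24.6 CPM (log2 change 1.04, SE 0.291, edgeR adjusted p = 0.802). Mcm4 had 31.3, 38.9, 59.8 and 55.5 CPM (0.70, SE 0.203) and Mcm6 83.2, 78.9, 136 and 107 CPM (0.61, SE 0.177). For these 3 licensing genes both KO values lay above both WT values, and so they did in 29 members in all, where 13.2% of genes did. Without KO1, 5 members had an unadjusted p under 0.05 and the median was 0.30. The mitosis genes of the same cluster had a median of -0.21. The share of its cells in the replication range was 17%, 18.5%, 37.6% and 29.1%, and 16.7%, 21.7%, 35% and 23.1% in neuron-like cluster 17. Whether either set of shares reflects a difference in replicating cells was not tested.

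Cluster 8 made up 15.1%, 22%, 33.4% and 24.1% of the arterial-like cells, so KO1 is high in this too. Its erythroid markers took 2.30, 0.565, 1.70 and 0.379 per 10000 UMIs and its hemogenic markers 2.52, 2.62, 2.0 and 2.20, and the part of either was not tested. In cluster 4 (0.0362% of genes called) and cluster 9 (0.0102%) the members' medians were 0.09 and -0.03. In all arterial-like cells the median was 0.12. A test of the difference in KO effect between arterial-like and other endothelial-like cells called none of 13833 genes. The same test between hemogenic and endothelial-like cells called 21 of 14191 genes and no member, the smallest adjusted p of a member being 0.201 by edgeR, for Rrm2 (0.52, SE 0.152).

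Summed member levels were higher in both KO libraries than in both WT libraries in other classes too. This held in 10 of the 36 classes and clusters with values in 4 libraries, and the opposite in 0. Some are the same cells under a class and a cluster name, among them the venous-like, hemogenic and endocardial-like cells in the 10. All rest on the same 4 libraries, and the number expected from order alone was not computed. In venous-like cells the gap was narrow, with 33.8 in KO2 against 33.7 in WT1. In endocardial-like cells the members took 29.2, 24.9, 38.5 and 34.3 of every 10000 UMIs, a KO minus WT difference of 9.33 against 5.71 in hemogenic endothelial-like cells and 5.55 in cluster 8. In 26 members both KO libraries lay above both WT libraries there, where 15% of genes did; WT1 holds 18 of these cells, and no gene test was run. In neuron-like cluster 17 the members took 18.6, 15.7, 24.6 and 21.2, a difference of 5.75, and 13 members did so, where 16.9% of genes did.

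**Figure D5:**
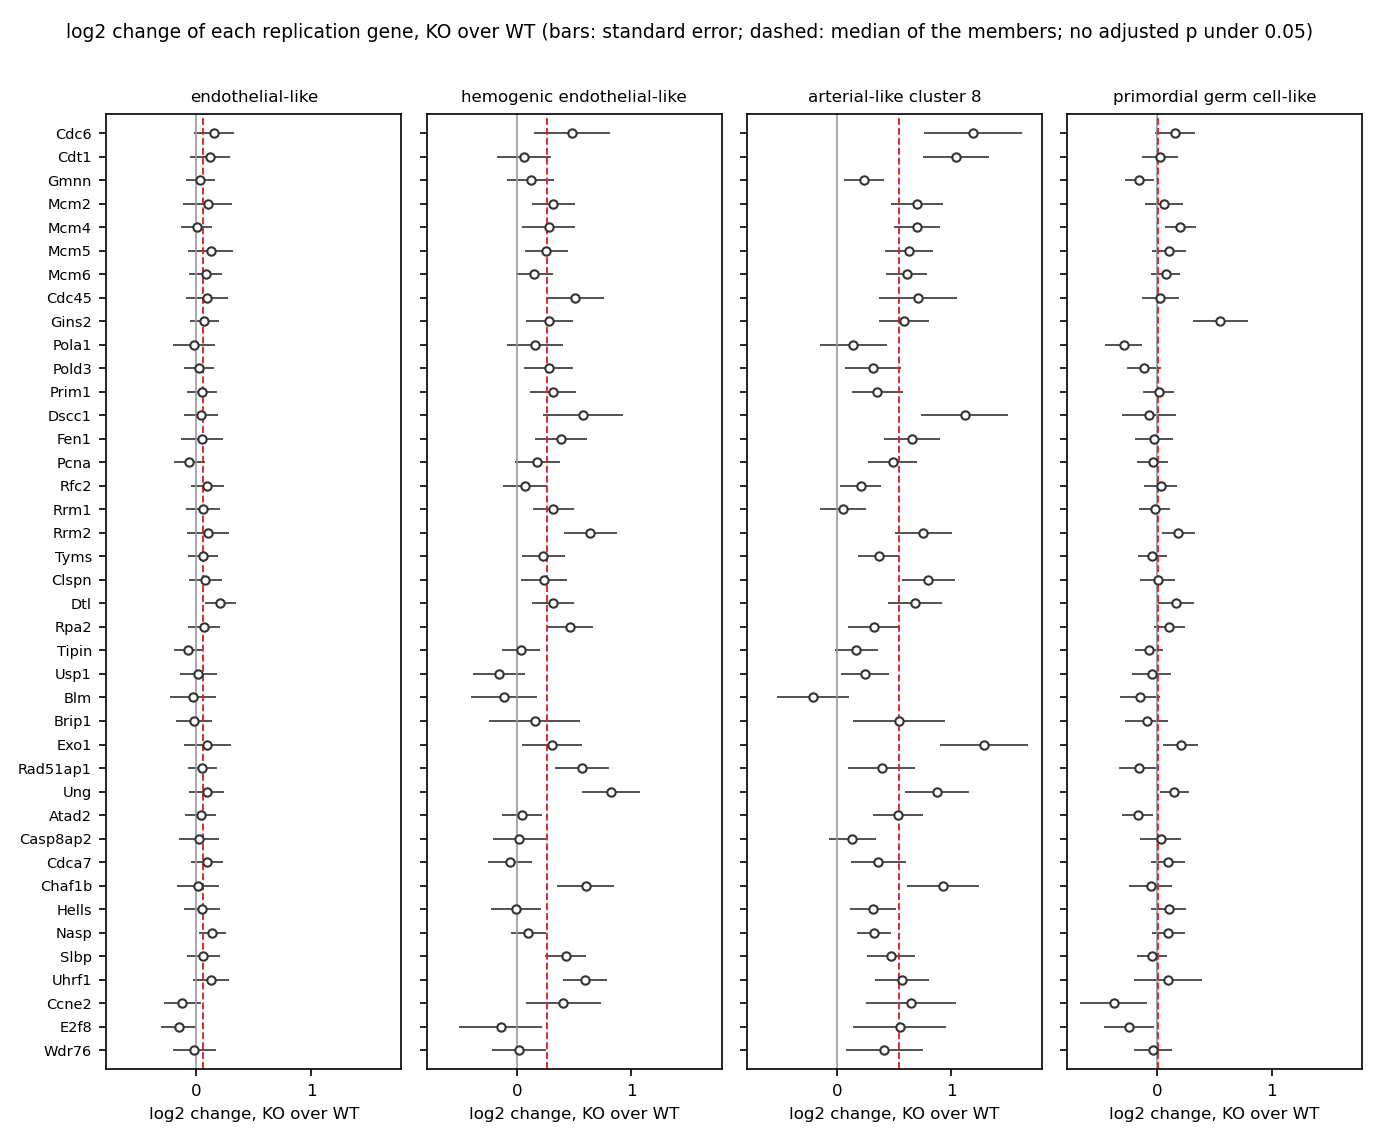
log2 change of each member (y axis) in KO over WT in 4 classes, with standard errors; the dashed line is the median of the members, and open points mark that no adjusted p is under 0.05. The points spread around 0 in endothelial-like and germ cell-like cells, while 39 of 40 lie above 0 in arterial-like cluster 8.

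Of the 40 members, 5 carry letters that pair with the seed of miR-223, the bases of a microRNA that choose its targets. The mature sequence (RefSeq, GRCm38.p6, chrX:96242884-96242905, plus strand) is shown with the seed in capitals, followed by the matching sites in the members' annotated 3' untranslated ends, with the match in capitals.
mmu-miR-223-3p: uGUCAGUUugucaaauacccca
Rrm2: gcttcctcatgAACTGACataaccctgatc
Rfc2: aggtggaagagAACTGACtccacaaacatt
Exo1: tcaaaatggagAACTGACcagagaagacca
Slbp: aaagaccctttAACTGACttgtaa
Hells: aatattgtctgAACTGACttcgttcttttg
These 5 of 40 members (12.5%) hold AACTGAC in the mouse GENCODE release M21 annotation, against 9.467% of 21738 genes. None of the 5 was called between KO and WT. Their log2 changes ran from 0.05 to 0.10 in endothelial-like cells, with a median of 0.09 against 0.05 in the other 35 members, and from -0.01 to 0.64 in hemogenic endothelial-like cells (0.31 against 0.26). In arterial-like cells the medians were 0.11 and 0.12. The difference between members with and without a site was not tested.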

How the data were processed

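The deposited values are UMI counts for each gene and barcode, written by the authors with Cell Ranger 3.1.0 per the file headers; the submitters' processing notes also name Seurat 4, without its role. For build, annotation and strand: not given in the sources used here. The members and lists were chosen with earlier results of these data known. Totals were 95158639, 181682389, 109713066 and 167542930 UMIs in WT1, WT2, KO1 and KO2. Of 31521 barcodes, 19172 were kept (1000 or more genes, mitochondrial UMIs under 10%) after called doublets were removed (0.8% per 1000 barcodes). Leiden clustering used igraph 0.11.9 and leidenalg 0.10.2 at resolution 1 on 40 components of 2000 genes, without 933 cell cycle genes (825 found by a correlation above 0.2). The marker fold limits (1.5, or 0.5 among endothelial clusters) and the minimum of 10 hemogenic cells (20 for the others) followed the data. Counts summed per library and class were tested with edgeR 4.0.16 (TMM, filterByExpr, glmQLFit robust; library as a block between classes, genotype alone for KO) in R 4.3.3, with DESeq2 1.42.0 as an alternative. The test was run on simulated data first. Comparisons of overlap between libraries used genes with 20 UMIs. In class contrasts up to 3 passing members per role with the largest change are named; for KO the 3 smallest p-values; and Mcm5, Pcna, Rrm2, Cdc6, Cdt1 and Ccne2 always. Members outside this rule were chosen after their values were seen.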

Additional observations from a re-analysis of the deposited data

How the results depend on the processing

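Libraries of 2 per genotype, 12 hemogenic cells in WT1 and a KO1 library that stands apart limit the comparison of genotypes. The count of members called was within 1.5 times its value in 278 recomputations and moved further in 7, and none was called between KO and WT under any. With a replicate block it was 0 in every class as well; same-numbered libraries deviated together (r = 0.166 to 0.567), but 2 pairs share only a number. Venous-like calls became 29 (16 higher, 13 lower) with cell cycle genes kept in the clustering and 18 with only listed genes left out, an alternative chosen after seeing the data. Hemogenic calls became 11 with thinned sums. Neural capillary-like calls, each time in a larger set of cells so named, became 13 (5 higher, 8 lower) with doublets kept, 18 (4 and 14) with cell cycle genes kept and 28 (2 and 26) with only listed genes left out. No sprouting-like class formed under those 2 clusterings, and clusters 4, 8 and 9 were not recomputed there. The causes were not tested. Leaving out 1 library gave 21 to 33 calls in sprouting-like, 20 to 29 in venous-like, 17 to 26 in sinusoidal-like, 15 to 20 in hemogenic against endothelial-like cells and 26 to 35 for cluster 9 against 8. It also gave KO log2 changes in endothelial-like cells of -0.26 to 0.039 (Ccne2), -0.079 to 0.36 (Cdc6), -0.076 to 0.30 (Cdt1), -0.10 to 0.38 (Mcm5), -0.18 to 0.063 (Pcna) and -0.18 to 0.34 (Rrm2), of -0.12 to 0.55 for Cdt1 in hemogenic cells, and of -0.054 to 0.60 for Cdt1 and -0.00043 to 0.41 for Rrm1 in cluster 4. Over all values of single members, 2887 kept sign and call, 12 changed sign and 91 lost the call.

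The KO minus WT difference in summed level (per 10000 UMIs) became 5.28 in arterial-like cells (1.42 in the report's clustering) and 3.56 in venous-like cells (1.49) with cell cycle genes kept, and 0.722 in germ cell-like cells with doublets kept. At limits of 5 and 15 UMIs the share of cells in the replication range was 89.0% and 45.1% in endothelial-like, 66.2% and 16.5% in arterial-like, 96.5% and 53.2% in venous-like, 96.0% and 52.3% in sprouting-like, 94.4% and 49.3% in sinusoidal-like, 69.4% and 17.6% in neural capillary-like, 92.1% and 52.4% in hemogenic and 99.2% and 78.4% in mesenchymal-like cells. It was 96.7% in germ cell-like cells at 15, 69.0% in neural capillary-like cells with doublets kept and 94.9% in mesenchymal-like cells at 20 of 10000 UMIs.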
